A study of Linum usitatissimum with 4 samples.

Results

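Cell wall and fibre genes are described here through 4 flax genes, namely Lus10015616.g (beta-galactosidase), Lus10015694.g (related to arabinogalactan peptide 23), Lus10003782.g (polygalacturonase) and Lus10023775.g (related to pectinesterase 4). They were taken by identifier from lists of cytosines that the authors selected on their methylation difference from a control and its q-value, so the genes were chosen by measured values, and their presence on a list is not a result. They are 4 of the 389 genes that the lists name, and they hold 8 of the 1894 listings and 7 of the 1648 listed cytosines. Their deposited descriptions name 3 enzymes and 1 arabinogalactan peptide, which are assigned to the cell wall here by family. The descriptions themselves do not mention the wall, and 0 of the 4 name fibres.

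The listings come from whole-genome bisulfite sequencing, in which unmethylated cytosines are read as thymine while methylated ones stay, of flax (Linum usitatissimum) cultivar JRF-2. The 4 groups were untreated seedlings kept at 22 ± 2 °C (control), seedlings heated to 40 ± 2 °C at 70% humidity for 4 h on each of 5 days (heat), seedlings from seeds soaked in 1 mM 5-azacytidine for 24 h at 20 °C in the dark and kept at 22 ± 2 °C (5-azacytidine), and seedlings given that soak and then that heat (5-azacytidine plus heat). Seedlings were 21 days old per the labels, heated ones were returned to 22 ± 2 °C, and how long they recovered before sampling was not stated. Each group is 1 library from shoot apices of 10 pooled seedlings, so no value below has a replicate error, pooled tissue mixes all cell types of the apex, and no test across samples was made. Every comparison uses the same control library, and 5-azacytidine plus heat was compared with the control only, not with 5-azacytidine alone.

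The wall of a growing plant cell is a cellulose network held in pectin and hemicellulose. Pectin is secreted with methyl groups that pectinesterases (pectin methylesterases) remove, after which polygalacturonases can cut its backbone, while beta-galactosidases trim galactose from side chains and arabinogalactan proteins are heavily sugared proteins of the wall and cell surface. In flax the bast fibres of the stem lay down a thick cellulose wall whose galactan is trimmed by a beta-galactosidase as it matures. Cytosine methylation in the CHH context (H stands for A, C or T) has no mirrored cytosine on the other strand, so it has to be set anew after replication, in plants by DRM2 with small RNAs and by CMT2. 5-Azacytidine is a cytidine analogue that traps DNA methyltransferases.

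All 8 listings of the 4 genes were in the CHH context and all 8 were lower in the treated library than in the control library. Of all 1894 listings 84.3% were CHH, so the context of the 8 is that of most listings. Of the 8, 4 listings near 2 genes came from the 5-azacytidine comparison, where 93.4% of the 455 listed CHH cytosines were lower, and 4 listings near 3 genes came from 5-azacytidine plus heat, where 97.6% of 1018 were lower. The direction of the 4 genes is thus that of nearly all listed CHH cytosines. The heat lists held 0 cytosines of these genes among their 48 CG, 13 CHG and 123 CHH listings, and 89.4% of the last were lower. A cytosine missing from a list may have had too few reads to be tested, or may have missed the authors' limits. As far as the values show, those limits were a difference of over 5 percentage points with q under 0.05. A missing cytosine is thus not shown to be unchanged. Differences are those the authors deposited, given as points of percent methylation (treated library minus control library). The read depth behind them was not given and was not worked out here.

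**Figure D1:**
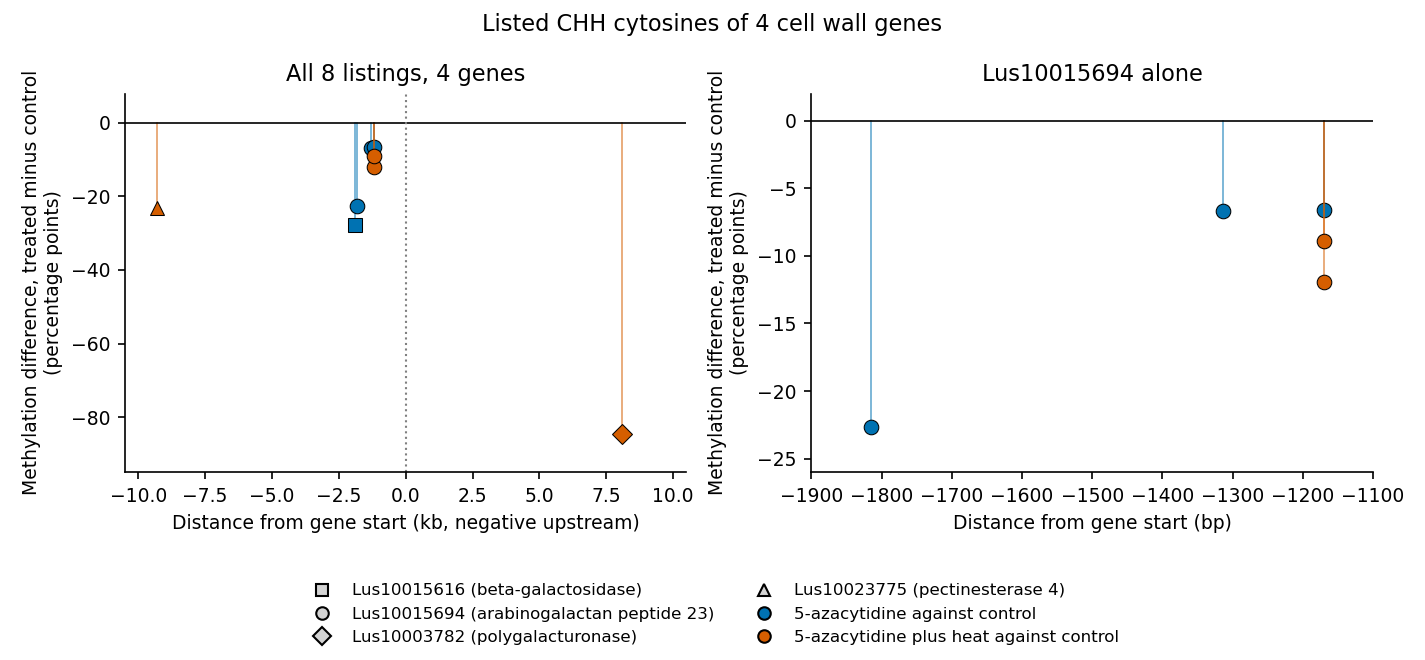
Methylation difference in percentage points (treated minus control, vertical axis) against distance from the gene start (horizontal axis, in kb for all 4 genes at left and in bp for Lus10015694.g at right), 1 point for each of the 8 listings, with symbols for genes and colours for comparisons. All points lie below 0, 6 of them within 2000 bp upstream of a gene start, and the lowest is the polygalacturonase site at -84.6 points. The read depth of that site was not given.

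Lus10015694.g carried most of the listings, 5 at 4 cytosines on chromosome Lu14. Its description is related to arabinogalactan peptide 23, a short arabinogalactan protein that in Arabidopsis is expressed in pollen. The 4 cytosines lay within 646 bp, at gaps of 502, 143 and 1 bp, and their deposited distances place the gene start at 1 position, 6206738. Distance rose toward 0 with position, as it would for a gene read in the forward direction. All 4 cytosines were upstream of that start, from 1815 to 1169 bp away.

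In the authors' deposited table for 5-azacytidine, the far site of Lus10015694.g (6204923, 1815 bp upstream) differed by -22.6 points with q = 0.00439. The middle site (6205425, 1313 bp upstream) differed by -6.70 points with q = 0.028 in the authors' deposited table. At 6205569, 1169 bp upstream, the authors' deposited table gives -6.61 points with q = 0.0481. The far site was thus the lowest of the 3, and both others lay close to the limit of 5 points.

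The 5-azacytidine plus heat list held a neighbouring pair of Lus10015694.g cytosines. In the authors' deposited table the site at 6205568 differed by -11.9 points with q = 0.0395, and the adjacent one at 6205569 by -8.91 points with q = 0.00025. The cytosine at 6205569 is in both lists, with -6.61 points after 5-azacytidine and -8.91 points after 5-azacytidine plus heat in the authors' deposited tables. These values share the control library, and their gap (-2.30 points, combined minus 5-azacytidine) has no error and was not tested. The 2 farther sites of the 5-azacytidine list were not in the combined list, and 6205568 was not in the 5-azacytidine list. Across the 8 tables whose gene columns were used, 194 cytosines recurred, while all 9 tables together listed 1648 cytosines. Most listed cytosines thus did not recur, and such absences are not shown to be a trait of Lus10015694.g or of a treatment. These counts pool all contexts and comparisons. The share of 5-azacytidine CHH cytosines that are also in the combined CHH list was not counted.

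Having several listed cytosines was common among genes. In the 5-azacytidine comparison 59 of the 191 genes with a CHH listing (30.9%) had at least the 3 that Lus10015694.g had. In the combined comparison 159 of 295 genes (53.9%) had at least its 2. The other 3 cell wall genes each had 1 listing in 1 comparison, like 105 of the 191 genes of the 5-azacytidine CHH list and 136 of the 295 of the combined list.

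Lus10015616.g, the beta-galactosidase gene, lies on the same chromosome. If it is read in the forward direction, which was not checked, its start lies 433317 bp from that of Lus10015694.g. Whether Lus10015616.g encodes the enzyme known to act in bast fibres is not stated in the tables. Its single site (Lu14, 5771518) was 1903 bp upstream of the gene start and differed by -27.7 points with q = 0.0178 in the authors' deposited table for 5-azacytidine. That was the lowest value among the 4 genes in this comparison and ranked 31 of 455 CHH listings counted from the lowest.

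The pectin genes appeared in the combined comparison alone, each with 1 site and farther from the gene start. That comparison names 301 of all 389 genes, against 216 for 5-azacytidine and 93 for heat. The share of all genes that appear in it alone was not counted, so this is not shown to be a trait of pectin genes. Lus10003782.g, described as a polygalacturonase or galacturan galacturonidase, had its site (Lu13, 9559681) 8091 bp downstream of the start. The tables used here do not say whether that position is inside the gene. In the authors' deposited table it differed by -84.6 points with q = 0.0418. This was the lowest value of the 4 genes, at rank 4 of 1018 from the lowest, yet its q-value stood at rank 895 from the smallest.

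Lus10023775.g, related to pectinesterase 4, had its site (Lu10, 5708452) 9317 bp upstream of the start. In the authors' deposited table for 5-azacytidine plus heat it differed by -23.0 points with q = 0.0298. It ranked 89 of 1018 from the lowest difference and 688 from the smallest q-value. Size and q-value thus ran in different orders in these genes. The smallest q-value of the 8 listings, rank 42 of 1018, belonged to the -8.91 points at Lus10015694.g, and 54.7% of the combined CHH list had a difference that low or lower.

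**Figure D2:**
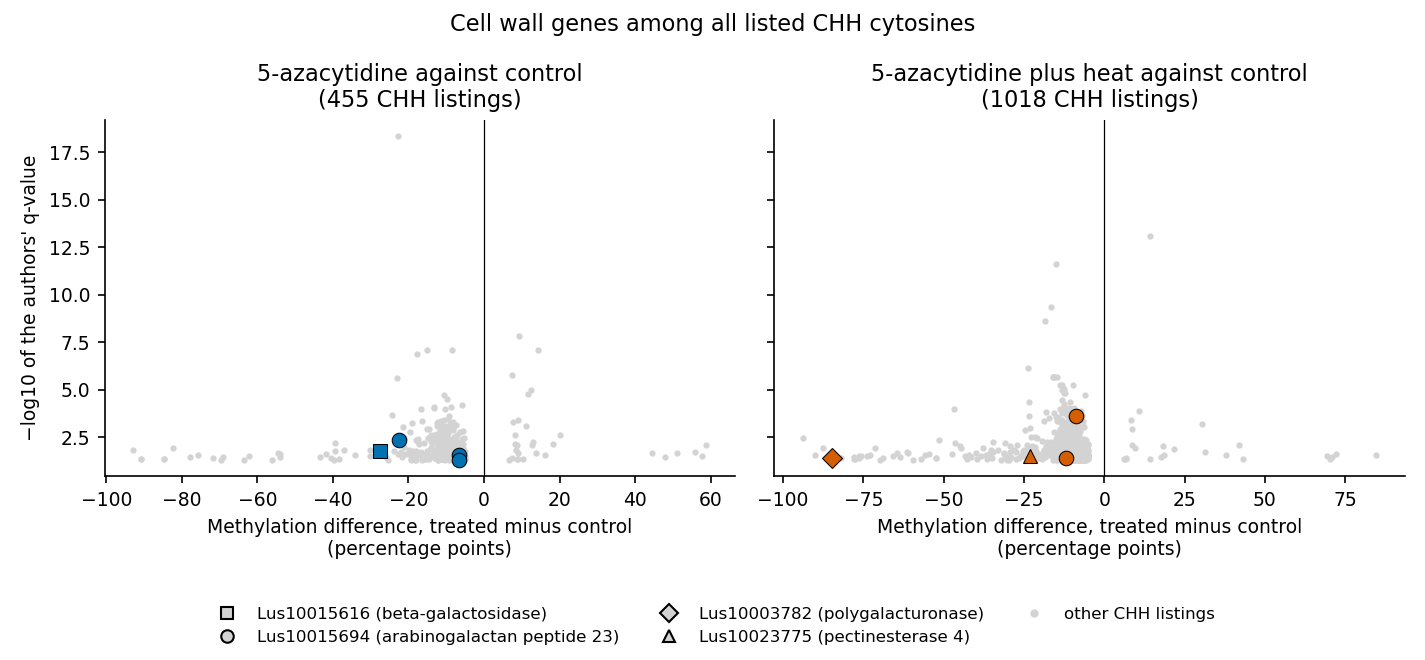
Authors' q-value as −log10 (vertical axis) against methylation difference in percentage points (horizontal axis) for all CHH listings of 5-azacytidine (left, 455) and 5-azacytidine plus heat (right, 1018), in grey, with the listings of the 4 genes as coloured symbols. All 8 symbols lie on the lower-methylation side: the polygalacturonase site at -84.6 points lies far left with q = 0.0418, while the smallest q-value belongs to a Lus10015694.g site at -8.91 points.

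In size, the polygalacturonase site stood apart at -84.6 points, and the other 7 listings lay between -27.7 and -6.61. The q-value of that site, 0.0418, stood only at rank 895 of 1018 from the smallest. The read depth of the site was not given, so the large difference may rest on few reads, which was not tested. The median of the 8 differences was -17.3 points. Within the 5-azacytidine list the median of their 4 was -14.7 points, where all 455 CHH listings had a median of -9.42 and a middle range of -12.3 to -7.32. Within the combined list it was -17.5 points, beside -9.24 and a middle range of -12.0 to -7.42 over 1018. With 4 values a list these medians rest on few sites, and no test was made. Of the 4, 3 in the 5-azacytidine list and 2 in the combined list are sites of Lus10015694.g, so they are not separate cases.

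By position, 6 of the 8 listings lay within 2000 bp upstream of a gene start, a stretch often taken as the promoter. All 4 of the 5-azacytidine comparison did, beside 14.5% of its 455 CHH listings, and 2 of 4 in the combined comparison did, beside 11.7% of 1018. Of the 6, 5 belong to Lus10015694.g, so they are sites of 1 region and not separate cases. The 7 cytosines lay apart from other listed ones: the nearest listing of any other gene, in any comparison or context, was 98010 bp away (from the beta-galactosidase site) and for Lus10015694.g at least 433405 bp, where that nearest listing is the beta-galactosidase site itself. No listing of another gene came within 1000 bp of any of them. The same distances were not computed for the other listed cytosines, so these are not shown to be unusual.

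Related wall genes came from a list of 32 words matched to the family descriptions, which gave 13 genes, the 4 above and 9 others. In all, 33 of 33 listings of these 13 genes were lower, 9 in the 5-azacytidine comparison and 24 in the combined one, where 90.8% and 95.3% of the listings of all genes and contexts were lower. The heat lists held 0 of the 13 genes and name 93 of all 389 genes (23.9%), fewer than the 216 and 301 genes of the 5-azacytidine and combined lists. Over all genes, 78.8% of the heat listings were lower. The 9 others had 25 listings, 23 of them CHH and 2 CHG, with a median of -11.4 points. Of these 25, 1 lay within 2000 bp of a gene start and 7 lay beyond 10000 bp, beside 20.4% and 38.8% of the 1793 listings whose gene columns were used. Sites of 1 gene lie close together, so the 25 are not separate cases, and no test was made.

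Among genes that build or modify pectin and hemicellulose, Lus10039784.g, related to galacturonosyltransferase 10, a family that builds the pectin backbone, had 3 listings from -20.5 to -11.4 points in the authors' deposited table for the combined treatment. Lus10005822.g, related to glucuronoxylan 4-O-methyltransferase 2, which methylates side groups of xylan, had 6 listings from -14.0 to -5.60 points in the authors' deposited tables. Lus10018651.g, related to xyloglucan glycosyltransferase 12, had 5 listings from -8.80 to -5.71 points in the authors' deposited tables, but 3 of these 5 carry no family description. Lus10025339.g had the second lowest value of the 13 genes, -73.0 points at 2904 bp upstream in the authors' deposited table for the combined treatment. Its description, glycosyltransferase family 14, names no wall polymer, so whether it acts on pectin or hemicellulose is not known here.

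Among genes that loosen the wall, the authors' deposited table for the combined treatment gives -12.0 points for Lus10017256.g (expansin-A11) and -13.7 points for Lus10001833.g (related to endoglucanase 19, an enzyme that cuts glucan chains). Among genes named for the lignin pathway, Lus10003787.g, related to cinnamyl alcohol dehydrogenase 4, had -24.9 points in the same authors' deposited table. Lus10006885.g, like cinnamoyl-CoA reductase, had 5 listings from -12.5 to -9.03 points in the authors' deposited tables, all of them 27416 bp or more from the gene start. Lus10003944.g, UDP-glycosyltransferase 72B1, a family that adds glucose to phenolic compounds, had -22.1 and -14.3 points in the authors' deposited tables, at 40943 and 39412 bp upstream.

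**Figure D3:**
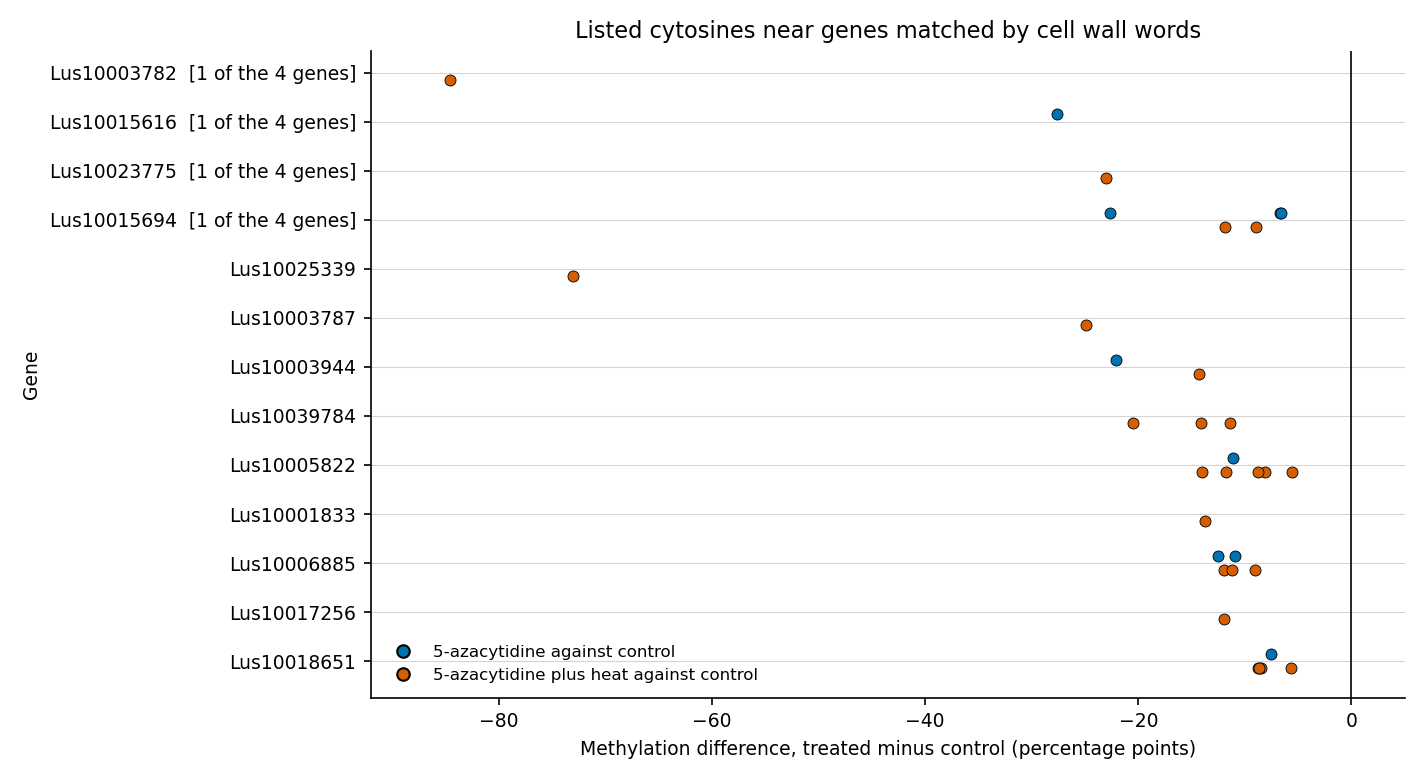
Methylation difference in percentage points (treated minus control, horizontal axis) for each of the 33 listings near the 13 genes matched by cell wall words (vertical axis, the 4 genes first), 1 point for each listing, coloured by comparison. Every point lies below 0, between -84.6 and -5.60 points, and none comes from the heat comparison.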

How the data were processed

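Trimmomatic, FastQC, BWA, MethylDackel and methylKit are named in the submitters' processing notes, and their versions and the genome build are not given in the sources used here. Reads were pairs of 150 bp, per the labels' protocols. The authors deposited 9 tables (3 comparisons by 3 contexts) with a p-value and q-value per cytosine. The methylation difference is the authors' deposited score in percentage points. The files do not state its sign, taken here to be the treated library minus the control as methylKit codes it; coded otherwise, every "lower" would read higher. Distances are from the authors' nearest gene start. Whether positions count from 0 or 1 is not stated.

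Each row spans 1 bp. Depth and levels per library were not analysed here, so no count test could be run. Gene columns were used from 8 tables; those of the 5-azacytidine plus heat CG table (101 rows), which go with positions of another table, were not. Of 194 cytosines in more than 1 of the 8 tables, 191 have 1 gene and 1 distance, among them the 1 repeated cytosine of the 4 genes. Protein hits in free text were left out: of 86 genes with such text in several rows, 27 keep 1 wording. They match the words at 20 further listings near 8 genes. Counts, medians and ranks were computed with pandas 2.3.3 (Python 3.11.15) and checked on simulated lists. The 4 genes and the words were chosen with earlier results of these data known. All 4 genes and, of the list, every other gene (at most 10) were to be named.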

Additional observations from a re-analysis of the deposited data

How the results depend on the processing

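No paired analysis was possible because each group has 1 library. With a q-value below 0.01, the 4 listings of the 4 genes in the 5-azacytidine comparison became 1 and the 4 in the combined comparison became 1. Below 0.001 they became 0 and 1. A difference of at least 10 points left 2 after 5-azacytidine, and a distance of at most 2000 bp left 2 in the combined comparison. These fall by construction, as fewer listings are kept. Counting each cytosine once gave a median of -22.6 points, not -17.3. Over all genes, a q-value below 0.001 brought the share of lower listings to 51.4% for heat, 80.0% for 5-azacytidine and 83.9% for the combination, and a distance of at most 2000 bp to 71.1% for heat; the cause was not tested. The other 18 alternative values stayed within 1.5 times the reported count, within the reported share's 95% binomial interval or, for the median, at the same value. That interval treats cytosines of 1 library as independent although many share a gene, so it is too narrow and served only as a yardstick. Several of the 18 could not move and say nothing about stability. The heat counts of the 4 genes and of the word list are 0 under any filter. The gene columns left out hold 0 rows of the 4 genes, and no site of these genes is CG or CHG, so joining such neighbours changed nothing. Read depth was not given, which limits every value.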
